A study of Mus musculus with 12 samples.

Results

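The genes described here carry glucose to pyruvate and lactate, and pyruvate into the mitochondrion. They are glucose transporters, glycolytic enzymes and their regulators, lactate dehydrogenase subunits, monocarboxylate carriers, and the pyruvate dehydrogenase complex with the kinases and phosphatase that set its activity. A list of 36 genes was taken by symbol, and 32 of them had a probe set that names a single gene. All 32 entered a fit of 12500 genes. Gpi1, Pfkfb1, Eno1 and G6pdx had no such probe set in the annotation used and were not analysed here. The genes were measured in mouse ovarian granulosa cells, the somatic cells around the oocyte, which were collected by puncturing antral follicles. Wild-type mice were compared with Inha-/- mice, which lack the alpha subunit of the hormone inhibin. Mice of both genotypes carried the mixed strain background C57BL/6J;129S5/SvEvBrd and were 21 days of age. All 4 groups received 5 IU of PMSG, a gonadotropin that acts like follicle-stimulating hormone, for 44 to 46 h. In 2 of the groups, 1 of each genotype, this was followed by 5 IU of hCG for 6 h, which stands in for the ovulatory surge of luteinizing hormone. Each group held 3 samples, called independent in the design text, on 1 Affymetrix array each. The Inha-/- deletion is not limited to granulosa cells, so the 2 genotypes differ in the whole animal.

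Glucose enters cells through the GLUT carriers, is trapped as glucose 6-phosphate by hexokinases and is committed to glycolysis by phosphofructokinase. Pyruvate kinase makes pyruvate, which lactate dehydrogenase turns into lactate for export through monocarboxylate carriers, or which pyruvate dehydrogenase turns into acetyl-CoA unless its kinases shut it off. Oocytes use glucose poorly, and granulosa and cumulus cells are known to supply them with pyruvate and lactate. Glycolytic genes are also known targets of the hypoxia-inducible factors, which bind a short core, ACGTG or GCGTG, in promoters.

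Expression was deposited on a log2 scale, with each probe set's median over the 12 arrays set to 0. A value therefore gives a difference from that gene's own median, not a level, and values of different genes cannot be ranked against each other. A gene was called changed at an adjusted p under 0.05 in limma, with Benjamini-Hochberg adjustment over all 12500 genes, and an SE follows each fitted difference after ±. Inha itself lay between 5.40 and 5.87 on the 6 wild-type arrays and between -7.40 and -5.40 on the 6 Inha-/- arrays, as the labels state. Array medians lay between -0.02 and 0.09. The SD of an array's values was widest, at 0.73, for wild-type replicate 3 after hCG, against 0.37 to 0.60 on the other 11 arrays. In whole samples of cells, fewer cells of a type and less RNA per cell cannot be told apart. Because the values are centred, the labelled cell type could not be checked against the level of granulosa markers.

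hCG moved the glucose genes of wild-type cells in both directions. The glucose carrier Slc2a1, the hexokinase Hk2, the regulator Pfkfb4 and the enolase Eno2 rose, whereas the phosphofructokinase subunits Pfkl and Pfkm, the aldolases Aldoa and Aldoc, the lactate carriers Slc16a1 and Slc16a3 and 2 pyruvate dehydrogenase kinases fell. Of the 32 genes, 4 rose, where 9.87% of all genes of the fit did, and 8 fell, where 12.2% of all genes did. The arrays of both groups did not overlap for 4 genes that were higher with hCG (18.7% of all genes) and for 14 that were lower (24.5% of all genes). The median log2 fold change of the 32 genes was -0.51, beside -0.06 over all genes, and 23 of the 32 values were negative.

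Slc2a1, which encodes the widely used glucose carrier GLUT1, rose with hCG. Its values on the wild-type arrays were -0.89 to -0.68 before hCG and 0.27 to 0.60 after it. The log2 fold change was 1.27 ± 0.20 (2.41-fold, adjusted p = 0.00134), and the other 2 probe sets of the gene gave 1.05 and 1.19. Hk2, the inducible hexokinase, went from a range of -0.60 to -0.40 to a range of 0.37 to 1.70. Its log2 fold change was 1.45 ± 0.29 (2.73-fold, adjusted p = 0.00466), with wild-type replicate 1 after hCG the highest of the 3 arrays. Hk1, the constitutive hexokinase, had a log2 fold change of -0.67 ± 0.25 (adjusted p = 0.0795) and did not pass the test.

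Pfkfb4 had the largest change of all 32 genes. It encodes a bifunctional enzyme that makes and breaks down fructose 2,6-bisphosphate, the strongest activator of phosphofructokinase. It lay at 0.19, 0.68 and 0.12 on the wild-type arrays before hCG and at 3.02, 2.82 and 3.37 after it. On the Inha-/- arrays it lay at -0.12, -0.87 and -1.11 before hCG and at -1.46, -0.34 and -0.90 after it. The 3 wild-type arrays after hCG stood above the other 9 by more than 2 log2 units, and the groups did not overlap. With hCG in wild type it changed by 2.74 ± 0.33 (6.68-fold, adjusted p = 0.000196), and it was 1.77 after quantile normalization. The related genes Pfkfb2 and Pfkfb3 were not called. Pfkfb3 had probe sets of opposite sign, at -0.63 for the probe set used and 0.94 for another.

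Eno2, the enolase isozyme named after neurons, rose as well. It lay at -0.03, -0.10 and -0.06 on the wild-type arrays before hCG and at 2.18, 0.84 and 2.20 after it. The Inha-/- arrays lay between -0.11 and 0.28 in both states. All 3 wild-type arrays after hCG were thus above the other 9, and replicate 2 was the lowest of them. Eno2 changed by 1.80 ± 0.31 on the log2 scale (3.49-fold, adjusted p = 0.00235).

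**Figure D1:**
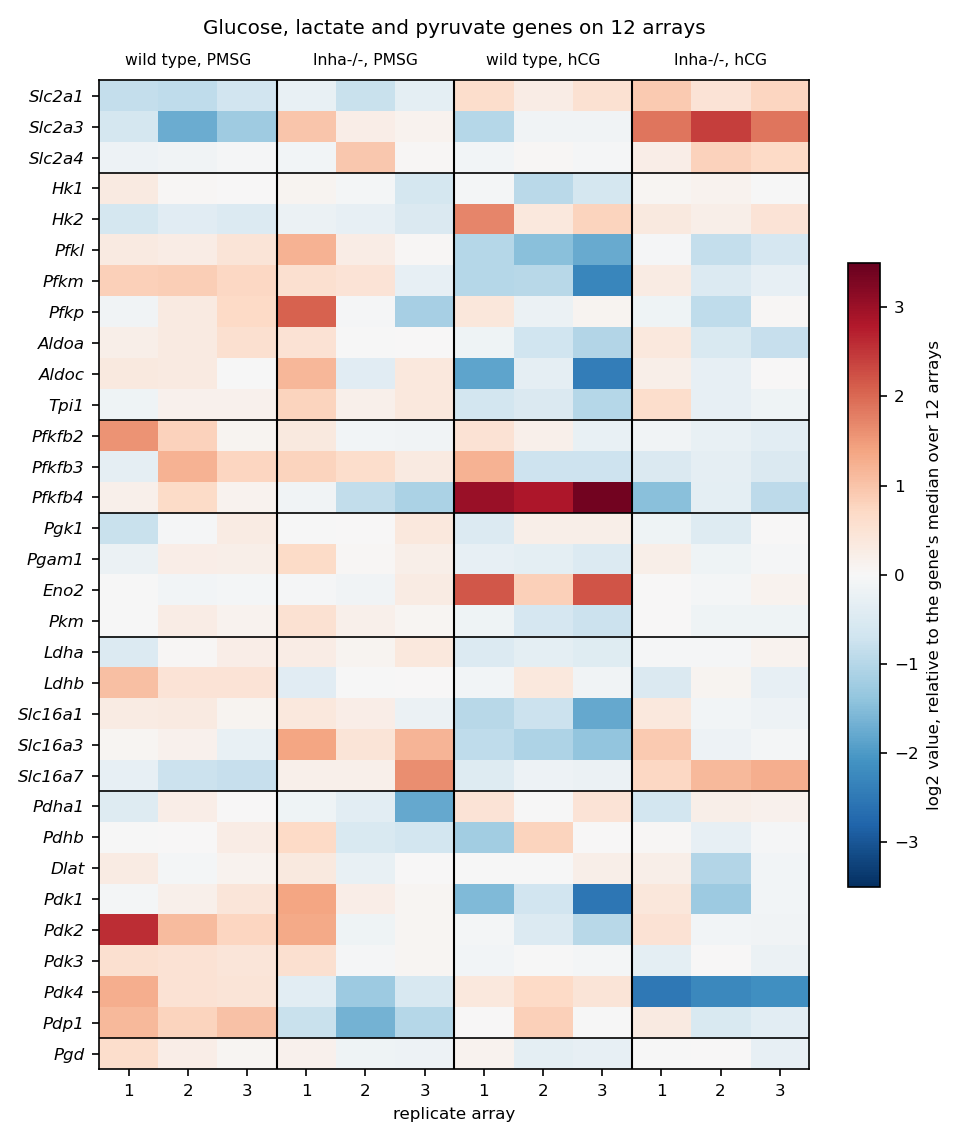
Values of the 32 genes on each of the 12 arrays, as log2 differences from each gene's median over the arrays (colour scale), with genes in rows by role and arrays in columns by group. Pfkfb4 and Eno2 stand out on the 3 wild-type arrays after hCG, and Pdk4 is lowest on the 3 Inha-/- arrays after hCG.

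The promoters of the 4 genes that rose are shown because they share a direction, and that of Ldha because its count of hypoxia response cores was highest. The count takes both strands, so a palindromic CACGTG counts once on each strand. Pdk3, with a count of 4 and no palindrome, holds more separate stretches than Ldha. RefSeq windows (build GRCm38.p6) were given for 28 of the 32 genes. The sequences are the 250 bases before the first listed start, 5′ to 3′ on the gene's strand, and capitals mark each ACGTG or GCGTG, or their reverse complements CACGT and CACGC. Slc2a1 is at chr4:119108495-119108744 (plus strand), Hk2 at chr6:82774455-82774704 (minus strand) and Pfkfb4 at chr9:108991652-108991901 (plus strand). Eno2 is at chr6:124769674-124769923 (minus strand) and Ldha at chr7:46845554-46845803 (plus strand).
Slc2a1: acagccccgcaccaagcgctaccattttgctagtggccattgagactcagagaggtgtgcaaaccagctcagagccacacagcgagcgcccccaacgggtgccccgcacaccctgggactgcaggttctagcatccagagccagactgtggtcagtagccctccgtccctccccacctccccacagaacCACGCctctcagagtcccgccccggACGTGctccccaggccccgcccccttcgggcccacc
Hk2: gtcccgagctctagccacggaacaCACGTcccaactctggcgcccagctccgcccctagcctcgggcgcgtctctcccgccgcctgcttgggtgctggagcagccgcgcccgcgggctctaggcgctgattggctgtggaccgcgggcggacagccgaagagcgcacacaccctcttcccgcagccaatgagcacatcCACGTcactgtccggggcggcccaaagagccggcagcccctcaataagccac
Pfkfb4: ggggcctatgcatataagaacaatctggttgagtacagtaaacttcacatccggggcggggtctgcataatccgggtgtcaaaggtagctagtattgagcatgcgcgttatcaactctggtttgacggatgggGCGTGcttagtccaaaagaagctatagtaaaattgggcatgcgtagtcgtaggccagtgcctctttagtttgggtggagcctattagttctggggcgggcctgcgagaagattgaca
Eno2: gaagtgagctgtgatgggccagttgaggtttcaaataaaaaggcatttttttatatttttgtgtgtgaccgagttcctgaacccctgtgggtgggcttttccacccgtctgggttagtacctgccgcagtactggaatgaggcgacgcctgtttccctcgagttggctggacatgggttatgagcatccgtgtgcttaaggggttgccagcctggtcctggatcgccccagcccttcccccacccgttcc
Ldha: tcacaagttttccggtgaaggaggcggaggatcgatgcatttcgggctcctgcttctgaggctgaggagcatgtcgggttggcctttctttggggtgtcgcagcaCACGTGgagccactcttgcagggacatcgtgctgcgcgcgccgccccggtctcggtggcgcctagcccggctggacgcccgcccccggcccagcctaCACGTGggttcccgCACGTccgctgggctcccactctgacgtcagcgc

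Slc2a1 holds an ACGTG from 36 to 32 bases before the start and a GCGTG on the opposite strand from 61 to 57 bases before it. Hk2 holds 2 copies of ACGTG on the opposite strand, the nearer from 52 to 48 bases before the start. Pfkfb4 holds 1 GCGTG, from 117 to 113 bases before the start, and Eno2 holds no core in this window. Ldha holds 5 copies of ACGTG counted over both strands, 4 of them in 2 copies of the palindrome CACGTG, and was called in none of the comparisons. Across the 28 windows, searched on both strands, 22 (78.6%) held ACGTG or GCGTG, beside 55.8% of the 10084 windows of all genes of the fit. ACGTG was in 46.4% of the windows (21.7% of all) and GCGTG in 53.6% (44.6% of all). CACGTG, the E-box, which overlaps ACGTG, was in 17.9% (8.46% of all). Of the 4 genes that rose, 3 held a core, and of the 8 that fell, 7 did. A match is a run of letters in this window and no measurement of binding.

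Other letters were searched on both strands of the same windows. TGACG, the core of the cAMP response element, was in 28.6% of the 28 windows and 26.6% of all windows. Pfkfb4 holds it from 128 to 124 bases before the start, and Hk2 on the opposite strand from 50 to 46 bases before it. CAGAC, a SMAD box, was in 28.6% of the windows (41% of all). AAGGTCA, a site of SF-1 and LRH-1, was in 2.8% of all windows and in none of the 28.

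The 8 genes that fell with hCG in wild type belong to the middle of glycolysis, to lactate export and to the control of pyruvate dehydrogenase. Pfkm encodes the muscle subunit of phosphofructokinase. It lay at 0.83, 0.86 and 0.72 before hCG and at -0.997, -0.972 and -2.27 after it, and in Inha-/- at 0.56, 0.47 and -0.29 before and 0.29, -0.49 and -0.29 after. The wild-type groups did not overlap, with replicate 3 after hCG far below the rest, and the log2 fold change was -2.22 ± 0.36 (adjusted p = 0.0016).

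Pfkl encodes the liver subunit. Its wild-type values were 0.32, 0.27 and 0.44 before hCG and -1.01, -1.45 and -1.76 after it, and its Inha-/- values were 1.21, 0.27 and 0.04 before and -0.04, -0.83 and -0.59 after. In each genotype all arrays after hCG lay below all arrays before it. The change was -1.75 ± 0.32 (adjusted p = 0.00312) in wild type, where the mean over the gene's 3 probe sets was -1.09. Pfkp, the platelet subunit, was not called (-0.20 ± 0.62).

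The aldolases split a 6-carbon sugar phosphate into 3-carbon units. Aldoc lay at 0.35, 0.31 and -0.00 in wild type before hCG and at -1.84, -0.30 and -2.41 after it. In Inha-/- it lay at 1.17, -0.40 and 0.38 before hCG and at 0.21, -0.28 and 0.00 after it. Replicate 2 after hCG was close to the values before hCG, while replicates 1 and 3 were far below them. In wild type Aldoc changed by -1.74 ± 0.49 (adjusted p = 0.0266), and the other probe set of Aldoc gave 0.02. Aldoa had a log2 fold change of -0.99 ± 0.32 (adjusted p = 0.0463). Its 4 other probe sets gave -1.002 to -0.316, and all 5 carry the suffix x, used where probes may match other transcripts.

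Slc16a1 and Slc16a3 encode the monocarboxylate carriers MCT1 and MCT4, which move lactate across the cell membrane. Slc16a1 went from between 0.08 and 0.32 to between -1.79 and -0.74 in wild type, a log2 fold change of -1.40 ± 0.28 (adjusted p = 0.0049). The mean over its 2 probe sets was -0.76. Slc16a3 went from between -0.25 and 0.16 to between -1.39 and -0.90, a log2 fold change of -1.11 ± 0.32 (adjusted p = 0.0274). Neither pair of groups overlapped. The lactate dehydrogenase subunits Ldha and Ldhb were not called, at -0.34 ± 0.20 and -0.62 ± 0.25.

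Pdk1 and Pdk2 encode kinases that switch pyruvate dehydrogenase off. Pdk1 lay at -0.06, 0.17 and 0.42 in wild type before hCG and at -1.54, -0.67 and -2.52 after it, and in Inha-/- at 1.38, 0.24 and 0.06 before and 0.38, -1.28 and -0.10 after. Pdk2 lay at 2.59, 1.12 and 0.76 in wild type before hCG and at -0.06, -0.49 and -0.98 after it, and in Inha-/- at 1.33, -0.15 and 0.06 before and 0.49, -0.10 and -0.13 after. For both genes the wild-type arrays after hCG were all below those before it, and the Inha-/- groups overlapped. The responses of the genotypes were not shown to differ, with differences of 0.86 ± 0.74 for Pdk1 (adjusted p = 0.671) and 1.67 ± 0.70 for Pdk2 (adjusted p = 0.289). The log2 fold changes in wild type were -1.75 ± 0.52 for Pdk1 (adjusted p = 0.0334) and -2.00 ± 0.49 for Pdk2 (adjusted p = 0.014). Of the 3 other probe sets of Pdk1, 2 gave -1.74 and -1.95 and the third 0.20.

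The 4 rises were called in each of the 12 fits that left out an array. The 8 falls were less steady, with 3 called without wild-type replicate 3 after hCG and 4 without wild-type replicate 1 or 2 after PMSG. Without that hCG array, Aldoa was at -0.79, Aldoc at -1.29, Slc16a3 at -0.98, Pdk1 at -1.28 and Pdk2 at -1.76, none of them called. Aldoa, Aldoc and Pdk1 also lost their calls without the SD filter and with the array name number as a random block (adjusted p = 0.0524 to 0.0799). After quantile normalization 4 rose and 5 fell. The array names carry serial numbers, which were split at their widest gap into 7 lower and 5 higher numbers. These are called the earlier and the later run here, though what the numbers stand for is not stated. The later run holds wild-type replicates 2 and 3 after hCG, which also share an array name number. Within the earlier run, which leaves 1 wild-type array after hCG that is assumed to vary like the others, the changes were 1.40 for Slc2a1, 2.20 for Hk2, 2.69 for Pfkfb4 and 2.24 for Eno2, all still called. Of the falls there, 2 were called, Pfkm at -1.80 and Slc16a1 at -1.21. With the earlier or later run as a covariate 3 falls were called, and Aldoa was at -0.55. The later run has no wild-type array before hCG, so no value can be had within it.

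**Figure D2:**
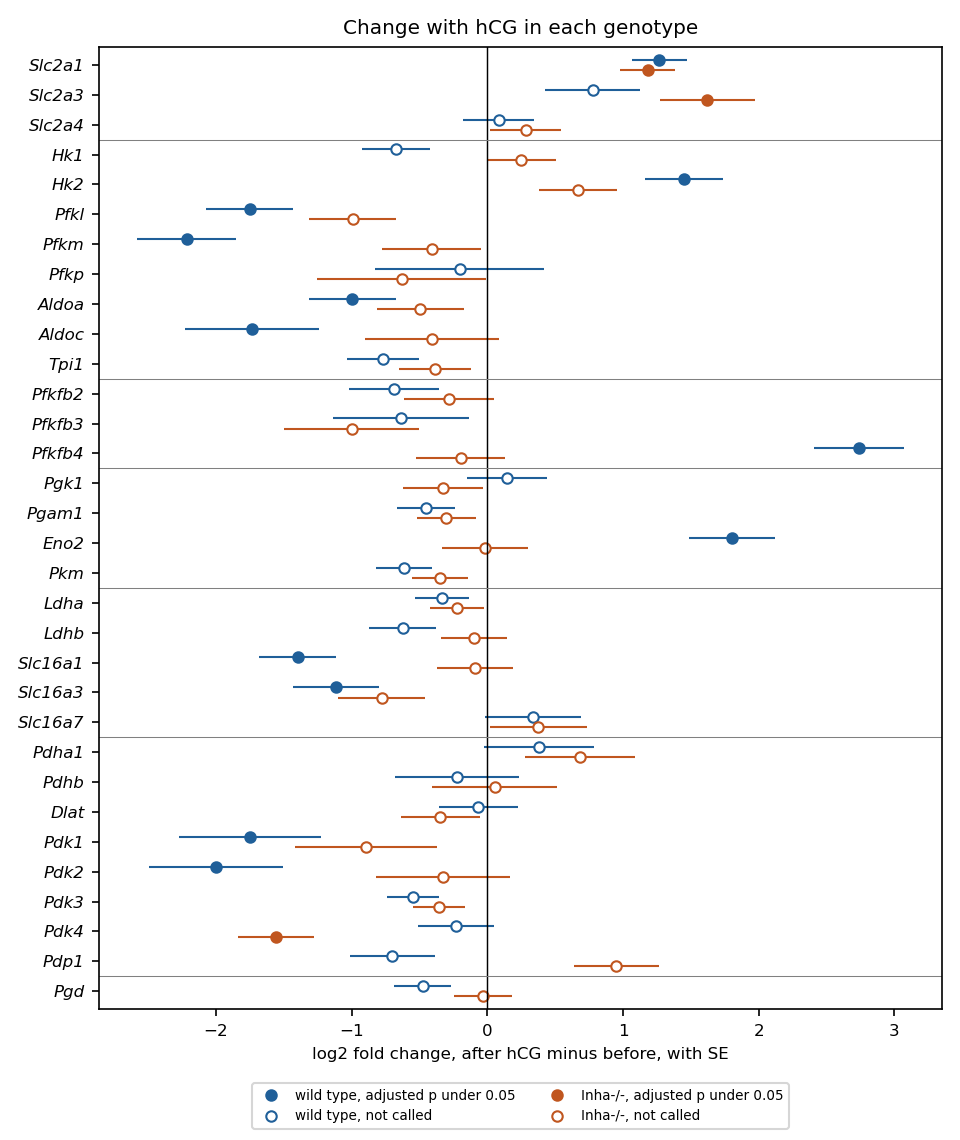
Log2 fold change with hCG (horizontal axis, with SE bars) for each of the 32 genes (rows, by role) in wild type and in Inha-/-, with filled points for genes called at an adjusted p under 0.05. Slc2a1 lies to the right of 0 in both genotypes, at 1.27 and 1.18, and Pfkfb4 is at 2.74 in wild type and at -0.20 in Inha-/-.

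Markers of other ovarian cells also moved with hCG in wild type. Of 9 surface epithelium markers, 3 rose, Cdh1 by 1.86 ± 0.25, Krt18 by 1.39 ± 0.30 and Krt7 by 1.34 ± 0.26, and 1 fell. The array medians of this list lay between 0.04 and 0.73 before hCG and between 0.35 and 1.04 after it in wild type, and between -1.26 and -0.35 before and -0.44 and -0.01 after in Inha-/-. The response of Cdh1 differed between genotypes by -1.65 ± 0.36 (adjusted p = 0.0405). Of 14 theca and stroma markers 1 fell, Aldh1a1, and of 10 leukocyte markers 1 rose, Cd52. No oocyte marker was called with hCG in either genotype, and the count at an unadjusted p under 0.05 in limma was 0 higher and 2 lower in wild type and 0 higher and 0 lower in Inha-/-. The part of these markers in the hCG responses of the 32 genes was not tested.

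Genes beside the 32 that hCG moved in wild type came from lists of neighbouring pathways. Of 16 other genes of glycolysis and sugar entry, 4 fell, among them Fbp1, a gluconeogenic phosphatase, at -2.85 ± 0.60 (adjusted p = 0.00628), and Khk, the fructose kinase, at -1.44 ± 0.32 (adjusted p = 0.0077). Of 29 genes of pyruvate handling and the TCA cycle, 1 rose, the malic enzyme Me1 at 1.16 ± 0.20, and 9 fell, among them Me2, its mitochondrial relative, at -1.79 ± 0.29. Of 19 genes of the pentose phosphate, hexosamine and glycogen routes, 4 rose and 2 fell. Those that rose included Ugdh, which makes the UDP-glucuronate used for hyaluronan, at 1.96 ± 0.24, and Gfpt2, which opens the hexosamine route, at 1.47 ± 0.19. Of 14 hypoxia-responsive genes outside glycolysis, 3 rose, Bhlhe40 at 2.82 ± 0.39, Ndrg1 at 2.55 ± 0.36 and Ddit4 at 1.72 ± 0.35, and 1 fell. Of 24 genes of insulin, IGF and metabolic regulation, 2 rose and 6 fell in wild type, Foxo1 at -2.02 ± 0.34 and Myc at -1.69 ± 0.29 among the falls. Among the rises of that list was Egln3, a prolyl hydroxylase that acts on the hypoxia-inducible factors and is itself hypoxia-inducible. Egln3 rose by 6.01 ± 0.47 in wild type and by 5.67 ± 0.47 in Inha-/- on the log2 scale.

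In Inha-/- cells, hCG changed 3 of the 32 genes. Slc2a1 and Slc2a3, the latter encoding the high-affinity glucose carrier GLUT3, rose, and Pdk4, the kinase of pyruvate dehydrogenase known to be induced in fasting, fell. Over all genes of the fit, 2.45% rose and 0.224% fell in this comparison. Arrays did not overlap for 4 genes that were higher with hCG (7.98% of all) and 5 that were lower (7.6% of all). The median of the 32 log2 fold changes was -0.29, beside -0.03 over all genes.

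Slc2a1 went from between -0.78 and -0.27 to between 0.49 and 0.92 in Inha-/-, a log2 fold change of 1.18 ± 0.20 (adjusted p = 0.00734). Slc2a3 lay at 0.97, 0.22 and 0.13 in Inha-/- before hCG and at 1.88, 2.42 and 1.88 after it, and in wild type at -0.60, -1.74 and -1.24 before and -0.98, -0.13 and -0.13 after. The 3 Inha-/- arrays after hCG were the highest of the 12 and apart from the rest. The log2 fold change with hCG in Inha-/- was 1.62 ± 0.35 (adjusted p = 0.0313), and the mean over its 4 probe sets was 0.86. In a fit of all probe sets, a second probe set of Slc2a3 changed by 1.86 (adjusted p = 0.000697), the probe set used above had an adjusted p of 0.0907, and the other 2 were at -0.03 and -0.00. This second probe set carries the suffix x, used where probes may match other transcripts. The probe set used above carries the suffix s, which also marks probes shared between transcripts, and the other 2 carry neither suffix.

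Pdk4 lay at -0.38, -1.26 and -0.57 in Inha-/- before hCG and at -2.49, -2.25 and -2.15 after it. In wild type it lay at 1.28, 0.49 and 0.46 before and at 0.38, 0.70 and 0.46 after. The Inha-/- arrays after hCG formed a tight group below all others, with an SD of 0.18, while the wild-type groups overlapped. The log2 fold change was -1.56 ± 0.28 in Inha-/- (adjusted p = 0.01), and it was -2.50 after quantile normalization. The response of Pdk4 was not shown to differ between genotypes, at a difference of -1.33 ± 0.40 (adjusted p = 0.13). The call of Slc2a3 was lost without wild-type replicate 3 or Inha-/- replicate 2 or 3 after PMSG, and without any of the Inha-/- arrays after hCG, at log2 fold changes of 1.44 to 1.71, and without the SD filter (adjusted p = 0.0709). Within the earlier run the 3 values were 1.45 for Slc2a1, 1.28 for Slc2a3 and -1.67 for Pdk4. Within the later run they were 0.96, 2.02 and -1.63, and no member was called in either run.

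The response of Pfkfb4 to hCG differed between genotypes. Its log2 fold change was 2.74 in wild type and -0.20 ± 0.33 in Inha-/-, a difference of -2.94 ± 0.47 (adjusted p = 0.00809). Among the 32 genes it alone was called lower in this test of the difference, where 1.5% of all genes were. None was called higher, where 0.584% of all genes were. At an unadjusted p under 0.05 in limma, the one test run, 5 of the 32 genes were above 0 and 3 below it. The share of all genes at that cut was not taken, so these counts cannot be called many or few. Slc2a3 was at 0.84 ± 0.50 (adjusted p = 0.485) with the probe set used, and its second probe set was at 1.77 in the fit of all probe sets (adjusted p = 0.014). Eno2, at 1.80 in wild type and -0.02 ± 0.31 in Inha-/-, had a difference of -1.82 ± 0.44 (adjusted p = 0.0632). The differences were 1.81 ± 0.51 for Pfkm (adjusted p = 0.112), 1.31 ± 0.40 for Slc16a1 (adjusted p = 0.135) and -0.78 ± 0.41 for Hk2 (adjusted p = 0.412). For these genes a different response in the genotypes was therefore not shown. The Slc2a1 difference was -0.09 ± 0.28. The interaction shares all 12 arrays with the other comparisons, and within the earlier run the Pfkfb4 difference was -3.65, not called.

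**Figure D3:**
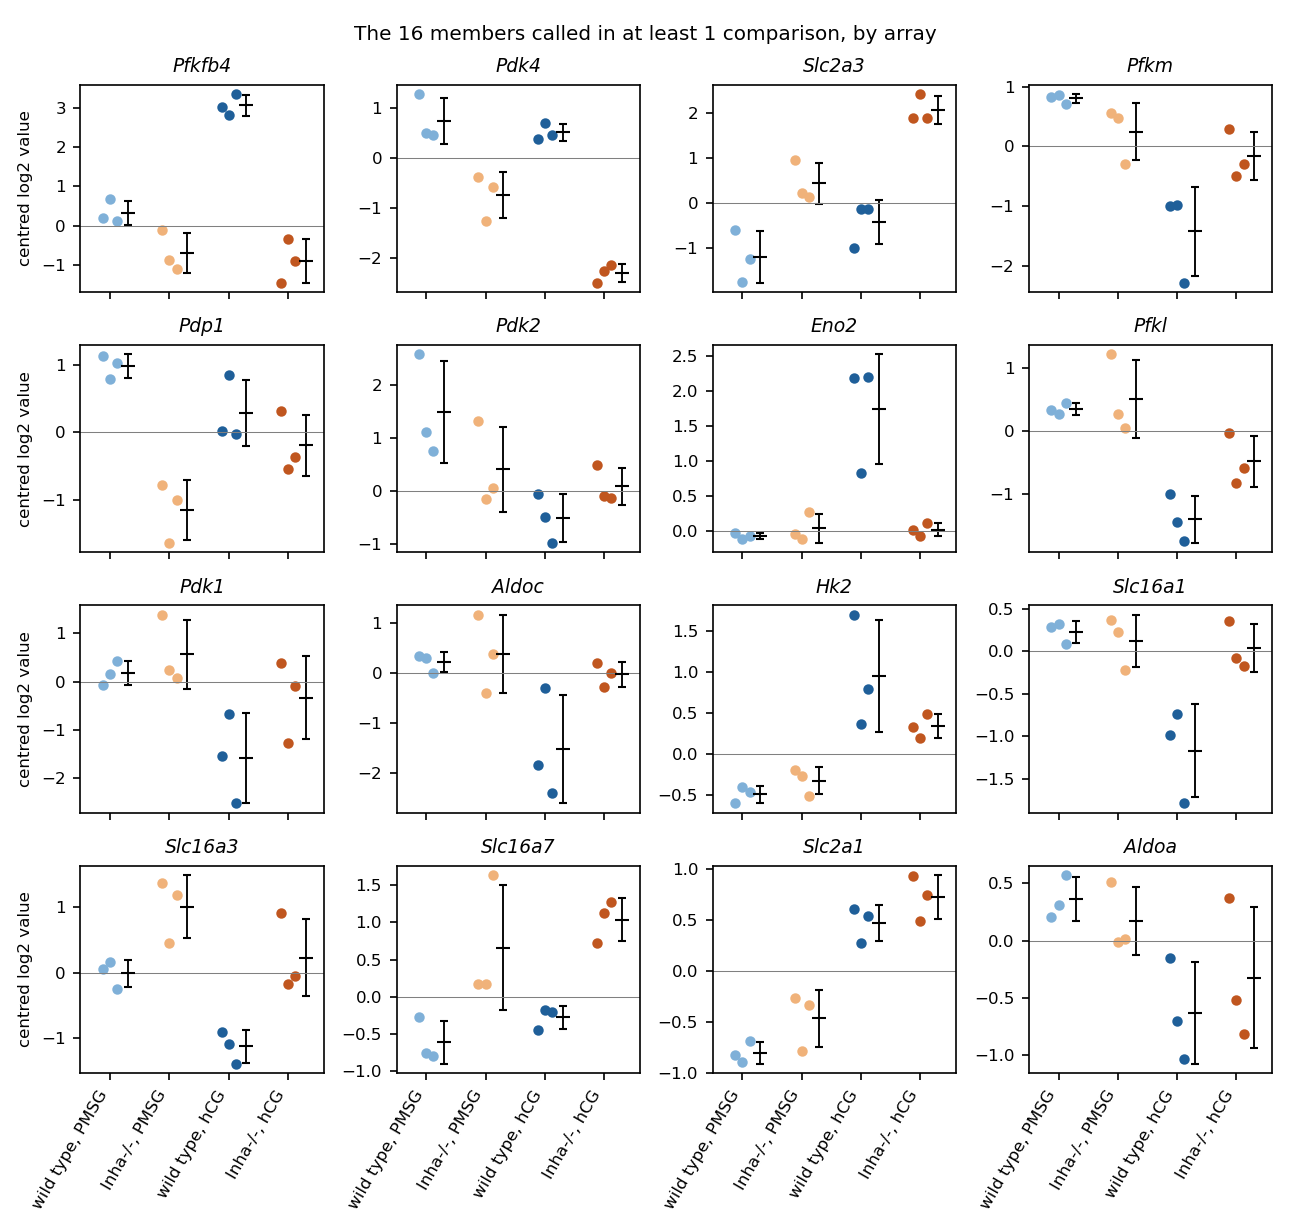
Value of each called gene on each array (points) by group (horizontal axis), as log2 difference from the gene's median over 12 arrays (vertical axis, its range set for each panel). The group mean is a short line, and its bar is the SD of the 3 arrays, not an SE. The 3 points of Pfkfb4 in wild type after hCG lie between 2.82 and 3.37, above its other 9 points.

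After hCG, Inha-/- cells had more transcript of a glucose carrier and of 3 lactate and pyruvate carriers than wild-type cells, and far less of Pfkfb4, Eno2 and Pdk4. Of the 32 genes, 5 were higher in Inha-/-, where 12.5% of all genes were, and 3 were lower, where 8.83% of all genes were. Arrays did not overlap for 13 genes that were higher in Inha-/- (22.5% of all) and for 3 that were lower (17.7% of all). The median of the 32 log2 fold changes was 0.28, beside 0.04 over all genes. This comparison shares its wild-type arrays with the hCG response in wild type.

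Slc2a3, with the values on each array given above, was 5.57-fold higher, a log2 fold change of 2.48 ± 0.35 (adjusted p = 0.000598). That value comes from the probe set with the suffix s. The second probe set of Slc2a3, with the suffix x, gave 1.98. The other 2, with neither suffix, gave -0.00 and 0.05, and the mean over all 4 was 1.13. All 3 measured monocarboxylate carriers were called higher. Slc16a1 was higher by 1.21 ± 0.28 (adjusted p = 0.0101), with Inha-/- arrays between -0.17 and 0.36. Its other probe set gave 0.67, and the mean over both was 0.94. Slc16a3 was higher by 1.35 ± 0.32 (adjusted p = 0.0108), with Inha-/- arrays between -0.17 and 0.91. Slc16a7, which encodes the high-affinity pyruvate carrier MCT2, was higher by 1.31 ± 0.36 (adjusted p = 0.0221), at 0.72 to 1.28 in Inha-/- and -0.45 to -0.17 in wild type. Pfkm was higher by 1.25 ± 0.36 (adjusted p = 0.0299). Ldha, with log2 fold change 0.42 ± 0.20, and Pkm, the pyruvate kinase, with 0.40 ± 0.21, had groups that did not overlap and were not called (adjusted p = 0.161 and 0.194).

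Pfkfb4 was 15.7-fold lower in Inha-/- after hCG, a log2 fold change of -3.97 ± 0.33 (adjusted p = 2.13e-05). Pdk4 was 7.01-fold lower, at -2.81 ± 0.28 (adjusted p = 6.65e-05). Eno2 was 3.29-fold lower, at -1.72 ± 0.31 (adjusted p = 0.00275). These 3 falls were called in every fit that left out an array, and within the earlier and later runs the values were -4.48 and -3.72 for Pfkfb4, -2.87 and -2.78 for Pdk4 and -2.15 and -1.50 for Eno2. With these fewer arrays Pdk4 was not called in the earlier run (adjusted p = 0.077) and Eno2 was not called in the later run (adjusted p = 0.166). The 5 that were higher came to 2 without wild-type replicate 3 after hCG, where Pfkm was at 0.82, Slc16a3 at 1.22 and Slc16a7 at 1.35, and to 3 without Inha-/- replicate 3 after hCG. They came to 8 without Inha-/- replicate 1 after PMSG. After quantile normalization 2 were higher and 3 lower, and Pfkm, Slc16a3 and Slc16a7 lost their calls (adjusted p = 0.0554 to 0.0684). Pfkm also lost its call without Inha-/- replicate 1 after hCG, without the SD filter (adjusted p = 0.0549) and with the array name number as a random block (adjusted p = 0.0608), and Slc16a7 without wild-type replicate 1 or Inha-/- replicate 2 after hCG. Within the earlier and later runs the values were 2.86 and 2.28 for Slc2a3, 1.29 and 1.23 for Pfkm and 1.34 and 1.14 for Slc16a1. They were 1.81 and 1.12 for Slc16a3 and 1.17 and 1.38 for Slc16a7. Slc2a3, Slc16a3 and Slc16a7 were not called in the earlier run, which leaves 1 array of each genotype after hCG. Pfkm and Slc16a1 were not called in the later run (adjusted p = 0.207 and 0.17).

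**Figure D4:**
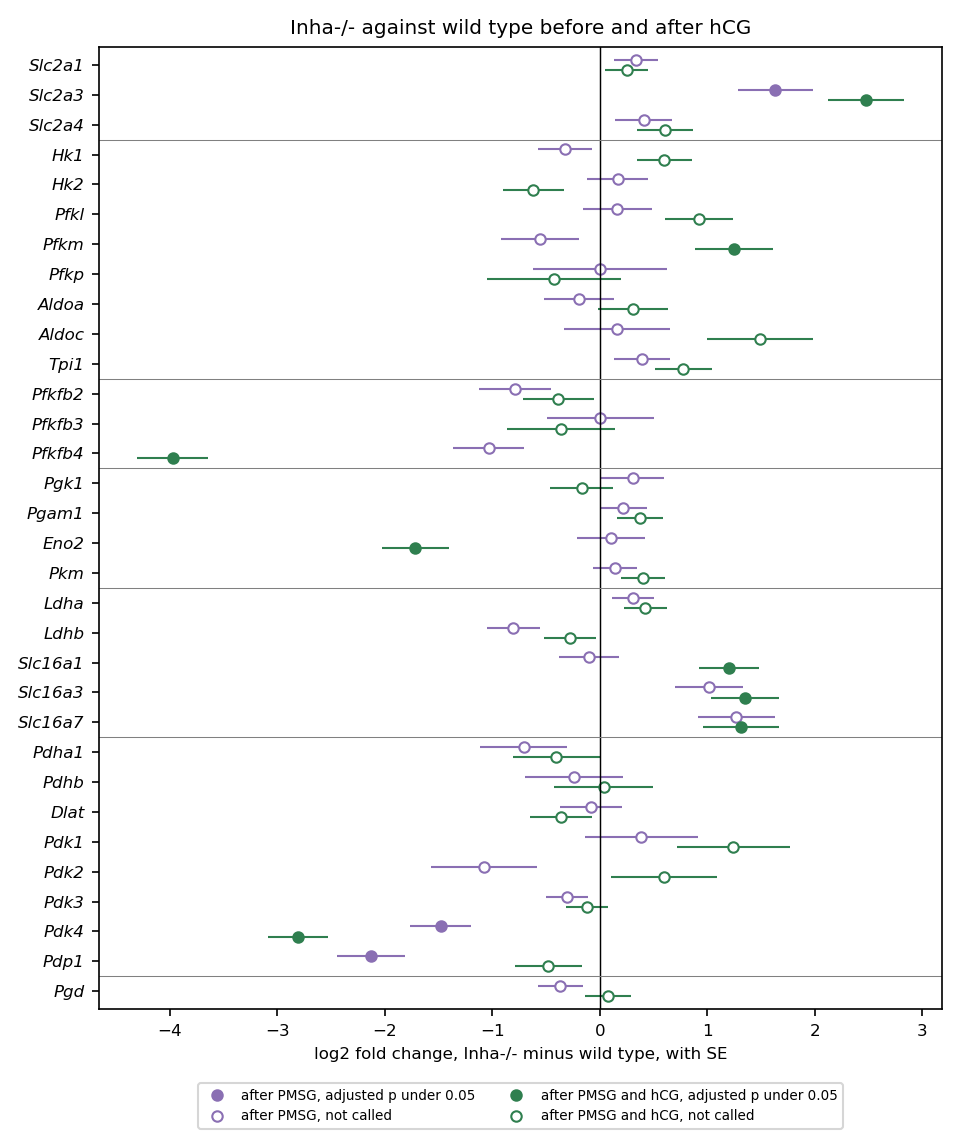
Log2 fold change of Inha-/- against wild type (horizontal axis, with SE bars) for each of the 32 genes (rows, by role) after PMSG and after PMSG and hCG, with filled points for genes called at an adjusted p under 0.05. Pfkfb4 lies at -3.97 after hCG and at -1.04, not called, after PMSG, and Slc2a3 is called higher at both times.

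Markers of other ovarian cells moved with genotype. Of 14 oocyte markers, 8 were higher in Inha-/- after hCG and 6 after PMSG, among them Zp2, a zona pellucida protein, at 5.72 ± 0.73 and 3.65 ± 0.73. The median of the oocyte markers on an array lay between -1.43 and -0.33 in wild type and between 0.19 and 2.88 in Inha-/-. Of 14 theca and stroma markers, 8 were higher after hCG, and after PMSG 6 were higher and 2 lower. The array medians of these lay between -1.13 and -0.34 in wild type and between 0.29 and 2.35 in Inha-/-. Of 9 surface epithelium markers, 5 were lower after hCG and 4 after PMSG. Their part in the differences of the 32 genes was not tested. Because the values are centred, no marker can be said to be at 0.

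Among neighbouring pathways after hCG, Inha-/- cells had less Me1, at -1.55 ± 0.20 (adjusted p = 0.000353), and less Idh1, a cytosolic isocitrate dehydrogenase, at -1.33 ± 0.21 (adjusted p = 0.00121). These were the 2 lower of 29 genes of pyruvate handling and the TCA cycle, where 4 were higher, Idh2 at 1.14 ± 0.22 among them. Of 24 genes of insulin, IGF and metabolic regulation, 2 were higher and 2 lower, among them Epas1, which encodes the hypoxia-inducible factor HIF-2 alpha, at -2.74 ± 0.45 (adjusted p = 0.00151). The response of Epas1 to hCG differed between genotypes by -3.10 ± 0.64 (adjusted p = 0.0324). Of the 14 hypoxia-responsive genes, 1 was higher and 3 lower, among them Ndrg1 at -1.76 ± 0.36 and Adm at -1.44 ± 0.28.

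After PMSG alone, 3 of the 32 genes differed between genotypes. Slc2a3 was higher in Inha-/-, where 2.98% of all genes were, and Pdk4 and Pdp1 were lower, where 3.21% of all genes were. Pdp1 encodes a phosphatase that switches pyruvate dehydrogenase back on, so both a kinase and a phosphatase of the complex were lower. Arrays did not overlap for 4 genes that were higher (14.3% of all) and 5 that were lower (11.3% of all). The median of the 32 log2 fold changes was 0.00, beside 0.02 over all genes. The comparison shares its arrays with both hCG responses.

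Pdp1 lay at 1.13, 0.79 and 1.03 in wild type and at -0.79, -1.64 and -1.01 in Inha-/- after PMSG, and after hCG at 0.02, 0.85 and -0.02 in wild type and 0.32, -0.54 and -0.37 in Inha-/-. The genotypes were far apart before hCG and overlapped after it. The log2 fold change after PMSG was -2.13 ± 0.32 (4.37-fold lower, adjusted p = 0.00278), and -1.76 for a second probe set. After hCG it was -0.48 ± 0.32 (adjusted p = 0.328), and the difference between both values, 1.65 ± 0.45, missed the threshold (adjusted p = 0.0953). Pdk4 was 2.79-fold lower after PMSG, at -1.48 ± 0.28 (adjusted p = 0.00989). The subunits of the complex itself, Pdha1, Pdhb and Dlat, were called in none of the comparisons.

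Slc2a3 was 3.10-fold higher, at 1.63 ± 0.35 (adjusted p = 0.0191). A second probe set gave 0.21 and the mean over all 4 was 0.48, so this value rests on the probe set chosen, which has the suffix s. The call was lost without wild-type replicate 2 (1.36) or 3 (1.61) after PMSG. Within the earlier run, which holds all but Inha-/- replicate 3 of these arrays, the values were 1.79 for Slc2a3, -1.56 for Pdk4 and -2.20 for Pdp1, none of them called. The later run holds no wild-type array after PMSG, so no value can be had within it.

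Slc16a7 (1.27 ± 0.36, adjusted p = 0.0589), Slc16a3 (1.02 ± 0.32, adjusted p = 0.0905), Pfkfb4 (-1.04 ± 0.33, adjusted p = 0.0953) and Ldhb (-0.80 ± 0.25, adjusted p = 0.083) had groups that did not overlap after PMSG and did not pass the test. Among regulators, 5 of 24 were lower in Inha-/-, among them Pik3r1, a regulatory subunit of phosphoinositide 3-kinase, at -4.39 ± 0.46 (adjusted p = 0.000325), and Myc, a transcription factor that acts on glycolytic genes, at -1.88 ± 0.29 (adjusted p = 0.00341). Of 29 genes of pyruvate handling and the TCA cycle, 3 were lower, Me2 at -1.78 ± 0.29, Idh1 at -1.04 ± 0.21 and Me1 at -0.96 ± 0.20.

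Of the 32 genes, 16 were called in at least 1 of the 4 pairwise comparisons and 16 in none. Of all 12500 genes, 33.2% were called in at least 1. The 32 genes were chosen with earlier results of these data known, so the shares do not test an excess. The 16 members called in none are Slc2a4, Hk1, Pfkp, Tpi1, Pfkfb2, Pfkfb3, Pgk1, Pgam1, Pkm, Ldha, Ldhb, Pdha1, Pdhb, Dlat, Pdk3 and Pgd, the pentose phosphate enzyme. They include 3 of the 4 measured enzymes of the later steps of glycolysis and both lactate dehydrogenase subunits. A call missed with 3 arrays a group does not show that a gene stayed level. Gapdh, which is not among the 32, was read from control probe sets outside the fit. Its 5′ means in wild type and Inha-/- were 0.18 and 0.19 before hCG and -0.08 and -0.10 after it. Those of the middle probe set were 0.13 and 0.11 before and -0.08 and -0.09 after. The 3′ means were 0.10 and 0.09 before and -0.01 and -0.09 after. All were thus lower after hCG, and no test was run on them. The 3′ minus 5′ difference of Gapdh, a sign of RNA quality, lay between -0.15 and 0.06 on the wild-type arrays before hCG and between 0.01 and 0.13 after it. On the Inha-/- arrays it lay between -0.12 and -0.07 before hCG and between -0.05 and 0.07 after it, with no overlap. The same difference of Actb lay between -0.27 and 0.18 before and -0.04 and 0.04 after hCG in wild type, and between -0.14 and 0.18 before and -0.02 and 0.21 after in Inha-/-. The part of these in the hCG responses was not tested.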

How the data were processed

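RNA of 12 granulosa cell samples was measured on single-colour Affymetrix arrays, grouped by the labels' genotype and treatment. The deposited values are log2 expression after GCRMA, per the submitters' processing notes; the GCRMA version is not given in the sources used here. Every probe set had a median over the arrays within 5e-07 of 0, a centring that no label states, so no level or signal above background can be read and the precision is limited by the 3 arrays a group. The table held 0 columns of other samples, and raw scans were not used here.

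For each gene the single-gene probe set of largest SD was taken, and genes with an SD of at least 0.151 (the upper 60% of probe sets) were kept, 12500 in all. Taking the largest SD leans towards responsive probe sets. A group-means model was fitted to all 12 arrays with limma 3.58.1 in R 4.3.3, and p values were adjusted by Benjamini-Hochberg over all genes of each of 5 contrasts. It was tested on simulated data first. Alternatives, named beside the results they change, concern the probe set, filter, normalization, array weights, serial numbers and left-out arrays. All 32 genes are accounted for: called ones are named, array values are given for the 10 of largest called change, and up to 3 called genes of each neighbouring list. Genes and lists were chosen with earlier results of these data known.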

Additional observations from a re-analysis of the deposited data

Results flagged for a closer look

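The response of Pfkfb4 to hCG differed between genotypes by -2.94 on the log2 scale (Inha-/- minus wild type), by the test of the difference itself. In wild type all 3 arrays after hCG were above all 3 before it, and in Inha-/- the groups overlapped.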

How the results depend on the processing

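No log2 fold change of the 27 calls changed sign in any of the 10 alternatives or the 12 fits without 1 array. The 4 rises with hCG in wild type and the 3 genes lower in Inha-/- after hCG were within 1.5 times their counts throughout; for the others the counts were as follows. After PMSG, 1 gene was higher in Inha-/-, and 2 with array weights or with the array name number as a random block, 0 on the earlier arrays alone and 0 to 2 without 1 array. The 2 lower genes became 0 on the earlier arrays alone and 2 to 3 without 1 array. After hCG, the 5 higher genes became 2 after quantile normalization, 10 with array weights, 2 on the earlier and 3 on the later arrays alone, and 2 to 8 without 1 array; the 3 lower became 3 to 4. In the wild-type response, the 4 rises stayed 4 without any 1 array, and the 8 falls became 5 after quantile normalization, 14 with array weights, 5 with the random block, 3 with the serial run as covariate, 2 on the earlier arrays alone and 3 to 11 without 1 array. In the Inha-/- response, the 2 rises became 1 without the filter, 1 with the serial run as covariate, 0 on the earlier or the later arrays alone and 1 to 2 without 1 array; the 1 fall became 0 on the earlier or the later arrays alone and was 1 without any 1 array. In the test of the difference, the 0 higher genes became 1 with the mean of all probe sets and 0 to 1 without 1 array; the 1 lower became 2 with the mean of all probe sets, quantile normalization or array weights, 0 on the earlier arrays alone and 1 to 2 without 1 array. The runs alone hold fewer arrays; the cause of the other shifts was not tested.

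The labels give groups the same replicate numbers, but deviations of same-numbered samples correlated between -0.13 and 0.30, and not every pair was above 0.1, so the numbers were not taken to pair the samples. Replicates 1 and 2 of both genotypes after PMSG, at 0.18 and 0.30, also share an array name number. Wild-type replicates 2 and 3 after hCG share such a number as well. Within a shared number the consensus correlation was 0.30, so arrays that share it may not vary independently. With the array name number as a random block, 5 genes rather than 8 fell with hCG in wild type. With the replicate number, not the array name number, as a block, 1 gene rather than 2 rose with hCG in Inha-/-, and the other counts stayed within 1.5 times.

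Centred values give no signal over background, and 3 arrays a group limit the precision. A lone array left in a group was assumed to vary like the others.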
